A study of Mus musculus with 12 samples.

Results

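The 9 genes *Gad1*, *Gad2*, *Slc32a1*, *Slc6a9*, *Chat*, *Th*, *Tfap2a*, *Tfap2b* and *Calb2* mark the amacrine cells of the retina and the transmitters that these cells release. They were taken by symbol from a table of 56748 mouse genes, and each symbol matched 1 entry. RNA was measured in ribosomes pulled down from rods (called rods here) and in whole retina before the pulldown (the input, called retina here), in control mice and in mice that lack *Pkm2* in rods (Pkm2Rodko), with 3 libraries in each of 4 groups. All mice carried the RiboTag allele, which puts an HA epitope on a ribosomal protein where Cre recombinase is active, and a Cre driven by the rhodopsin promoter (i75 line), so that an antibody to HA captures ribosomes of rods. Control mice had 1 floxed *Pkm2* allele (genotype label Pkm2_Rodhet, sample titles wt) and Pkm2Rodko mice had both alleles floxed (genotype label Pkm2_Rodko). The mice were 2 months old by the methods and 2 weeks old by the text of the deposit. Cycloheximide was perfused before the tissue was frozen. The labels do not say whether the 3 libraries of a group came from separate animals, so p-values measure the spread between libraries, which may be technical.

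Amacrine cells are interneurons of the inner retina that shape the signal passing from bipolar cells to ganglion cells. Most of them are inhibitory and release either GABA or glycine. GABA is made from glutamate by the glutamate decarboxylases GAD67 (*Gad1*) and GAD65 (*Gad2*), and the vesicular transporter VGAT (*Slc32a1*) loads both GABA and glycine into synaptic vesicles. The plasma membrane transporter GlyT1 (*Slc6a9*) takes up glycine and is a marker of glycinergic amacrine cells. Starburst amacrine cells, known for their part in detecting the direction of motion, make acetylcholine with choline acetyltransferase (*Chat*). A sparse amacrine type makes dopamine, for which tyrosine hydroxylase (*Th*) catalyses the rate-limiting step. The AP-2 transcription factors encoded by *Tfap2a* and *Tfap2b* are needed for amacrine development, and calretinin (*Calb2*) is a calcium-binding protein of amacrine and ganglion cells.

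Promoters of 5 members are shown because 3 of them belong to the GABA pathway, *Slc6a9* kept the largest share of its retina level in rods among the 9 members, and *Th* holds a known regulatory element. Each window runs from 250 bases before to 50 bases after a transcription start, 5′ to 3′ on the gene's strand, and comes from RefSeq on GRCm38.p6. The exon lengths and exon overlaps used further on come from GENCODE vM21, which is also on GRCm38, whereas the notes on the deposited table name GRCm39. RefSeq windows matched 8 of the 9 members, with 11 windows in all. Capitals mark matches, on either strand, to the AP-2 motif GCCNNNGGC or to the cyclic AMP response element TGACGTCA, and these 2 motifs shared no base in the windows shown. The windows lie at chr2:70561879-70562178 for *Gad1*, chr2:22622077-22622376 for *Gad2*, chr2:158610508-158610807 for *Slc32a1* and chr4:117835008-117835307 for the first of 3 *Slc6a9* starts, all on the plus strand, and at chr7:142899946-142900245 for *Th* on the minus strand.
Gad1: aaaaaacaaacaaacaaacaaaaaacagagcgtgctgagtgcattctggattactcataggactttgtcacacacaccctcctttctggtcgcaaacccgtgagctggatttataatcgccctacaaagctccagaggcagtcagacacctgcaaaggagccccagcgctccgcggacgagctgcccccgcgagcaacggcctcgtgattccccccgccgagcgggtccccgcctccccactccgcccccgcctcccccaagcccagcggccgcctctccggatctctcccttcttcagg
Gad2: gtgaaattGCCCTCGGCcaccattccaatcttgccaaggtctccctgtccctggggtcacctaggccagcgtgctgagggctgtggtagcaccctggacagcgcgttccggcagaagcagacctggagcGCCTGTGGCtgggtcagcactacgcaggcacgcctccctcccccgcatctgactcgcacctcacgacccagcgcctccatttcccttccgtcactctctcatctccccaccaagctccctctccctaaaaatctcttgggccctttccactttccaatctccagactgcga
Slc32a1: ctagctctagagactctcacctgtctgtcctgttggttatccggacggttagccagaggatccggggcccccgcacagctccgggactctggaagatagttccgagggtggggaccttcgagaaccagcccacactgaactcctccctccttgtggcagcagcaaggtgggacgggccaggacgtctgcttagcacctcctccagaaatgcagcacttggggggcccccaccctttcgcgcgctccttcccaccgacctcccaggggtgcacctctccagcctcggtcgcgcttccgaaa
Slc6a9: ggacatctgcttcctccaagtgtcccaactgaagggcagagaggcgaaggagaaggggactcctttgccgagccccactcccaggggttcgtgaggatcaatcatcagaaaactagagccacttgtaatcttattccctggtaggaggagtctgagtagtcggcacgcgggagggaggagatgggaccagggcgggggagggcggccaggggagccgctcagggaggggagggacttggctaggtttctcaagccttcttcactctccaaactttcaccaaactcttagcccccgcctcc
Th: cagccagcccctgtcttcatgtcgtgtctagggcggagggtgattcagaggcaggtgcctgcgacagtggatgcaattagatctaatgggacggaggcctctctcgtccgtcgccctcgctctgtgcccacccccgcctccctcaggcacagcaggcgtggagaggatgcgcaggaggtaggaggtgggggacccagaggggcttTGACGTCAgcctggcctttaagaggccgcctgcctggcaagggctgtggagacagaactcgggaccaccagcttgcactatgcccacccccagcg
The AP-2 motif was in 1 of the 11 member windows and in 16.6% of 32851 RefSeq promoters of the same length. Its 2 matches were in *Gad2*, at bases 9 to 17 and 130 to 138 of the window. The cyclic AMP response element was in the *Th* window, at bases 206 to 213, which is 45 bases before the start, and in 1.79% of all promoters. A match is a run of letters and not a measured binding site.

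The libraries held between 13458890 and 22790074 reads on genes. Comparisons of genotypes within rods or within retina used the deposited values, which are reads divided by a size factor set for each fraction, and comparisons of rods with retina used reads scaled by TMM over all 12 libraries (normalised reads). The targeted gene *Pkm* (ENSMUSG00000032294), whose *Pkm1* and *Pkm2* forms are counted together, had deposited values of 52141, 51049 and 54504 in control rods against 23751, 22553 and 22246 in Pkm2Rodko rods, and of 31189.6, 34234 and 31548 in control retina against 20107, 20328 and 21154 in Pkm2Rodko retina. Its log2 fold change was -1.20 ± 0.0838 (SE) in rods (adjusted p = 5.36e-05) and -0.65 in retina (adjusted p = 0.0219) by limma with Benjamini-Hochberg adjustment, and the genotypes did not overlap in either fraction. In control mice all 15 rod markers were higher in rods than in retina (median log2 fold change 1.91), while all 12 ganglion cell markers (-3.07), all 10 Müller glia markers (-2.87), all 6 horizontal cell markers tested (-2.51), all 10 cone markers (-0.72) and 9 of 11 bipolar cell markers (-2.98) were lower. The other 2 bipolar cell markers, named after their values were seen, were the homeobox gene *Otx2*, which was higher in rods at 0.89, and *Prkca*, which did not pass the test at -0.05. Over all genes tested in this comparison, 23.6% were called higher and 35.7% lower, and the median log2 fold change was -0.36.

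*Calb2* (ENSMUSG00000003657) was the most abundant of the 9 genes per length of exon in all 4 groups, and *Th* was the least abundant. In control retina *Calb2* stood at 2743 ± 53.8 normalised reads per kb (SD, n = 3), which was 60.2% of the summed level per kb of the 9 genes. It was followed by *Gad1* at 474 ± 42.0 per kb, *Tfap2b* at 402 ± 15.1 per kb, *Slc6a9* at 361 ± 7.04 per kb and *Slc32a1* at 279.8 ± 38.0 per kb. The lower end held *Gad2* at 141 ± 11.4 per kb, *Tfap2a* at 87.7 ± 10.1 per kb, *Chat* at 39.3 ± 2.30 per kb and *Th* at 23.9 ± 6.42 per kb. The libraries of no neighbouring pair in this order overlapped in control retina. In Pkm2Rodko retina the order was the same, but *Gad1* (433 ± 25.4 per kb) overlapped *Tfap2b* (385 ± 36.6 per kb), and *Tfap2b* overlapped *Slc6a9* (346 ± 16.8 per kb).

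In rods of both genotypes *Slc6a9* stood next after *Calb2* in the order per length. In control rods *Calb2* stood at 256 ± 42.7 normalised reads per kb, *Slc6a9* at 125 ± 5.44 per kb and *Gad1* at 64.4 ± 19.3 per kb, and these 3 did not overlap. *Slc32a1* (42.1 ± 12.01 per kb) overlapped *Tfap2b* (39.5 ± 10.7 per kb), *Gad2* (16.5 ± 4.49 per kb) overlapped *Tfap2a* (12.6 ± 1.495 per kb), and *Chat* (3.61 ± 1.93 per kb) overlapped *Th* (2.45 ± 1.05 per kb). The share of *Slc6a9* in the summed level per kb of the 9 genes was 7.93% ± 0.258 in control retina and 22.5% ± 3.36 in control rods, with 3 libraries in each group and no overlap. In Pkm2Rodko mice the share was 8.09% ± 0.114 in retina and 27.7% ± 3.54 in rods, again without overlap.

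**Figure D1:**
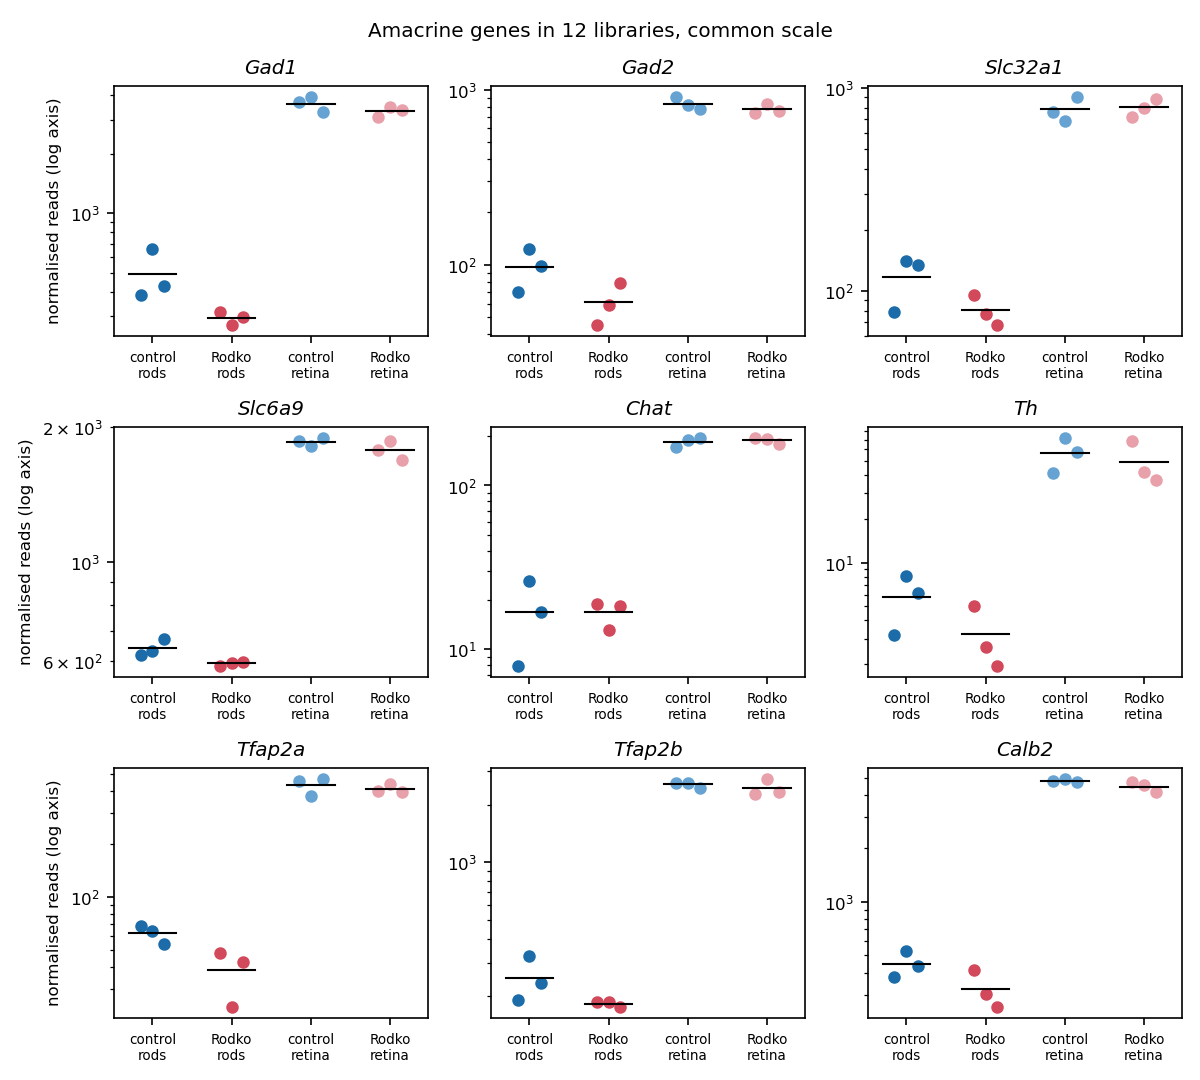
Normalised reads on a common scale (log axis) of the 9 genes in 12 libraries, with a point per library and a line at the mean of the 3 libraries of each group. For each gene, the 6 rod libraries lie below the 6 retina libraries, and *Slc6a9* shows the narrowest gap, from 1856 in control retina to 641 in control rods.

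Rods were compared with retina to ask how much RNA of the 9 genes is present in the pulldown. In control mice all 9 genes were lower in rods than in retina, with no overlap of libraries, and the log2 fold changes ran from -3.51 (*Chat*) to -1.53 (*Slc6a9*). Of all 25458 genes tested, 35.7% were called lower and 23.6% higher, and 36.8% were lower without overlap. The median log2 fold change was -3.12 over the 9 genes and -0.36 over all genes. With scaling by total reads in place of TMM, 12701 genes were called lower and 2186 higher in place of 9090 and 6004, the median of all genes was -0.76, and all 9 genes were still called lower.

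The GABA genes kept between 11.5% and 14.8% of their retina level in control rods by the fitted fold change. *Gad1* (ENSMUSG00000070880) had 386, 660.2 and 429 normalised reads in control rods and 3707, 3893 and 3269 in control retina, a log2 fold change of -2.91 ± 0.149 (SE, adjusted p = 2.80e-10 by limma with Benjamini-Hochberg adjustment, as for all values of this comparison). *Gad2* (ENSMUSG00000026787) had 69.7, 122 and 98.4 normalised reads in control rods against 903, 820.2 and 770.4 in control retina, a log2 fold change of -3.12 ± 0.198 (SE, adjusted p = 2.38e-09). *Slc32a1* (ENSMUSG00000037771), whose product fills the vesicles with the transmitter, had 79.1, 140.3 and 134 normalised reads in control rods against 764, 687 and 897 in control retina, a log2 fold change of -2.76 ± 0.193 (SE, adjusted p = 6.94e-09). In each of these 3 genes control rods replicate 1 was the lowest and replicate 2 the highest of the control rod libraries.

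*Slc6a9* (ENSMUSG00000028542), the glycine transporter, kept 34.5% of its retina level in control rods with TMM, 33.0% with RLE, 23.6% with scaling by total reads and 22.8% on the deposited scaling of each fraction. On the deposited scaling the other 8 members lay between 6.08% and 9.95%, so *Slc6a9* was the highest member on both scales. It had 617, 633 and 672 normalised reads in control rods and 1859.8, 1818 and 1889.9 in control retina. The log2 fold change was -1.53 (95% interval -1.69 to -1.38, adjusted p = 1.34e-10), and this interval lay above those of the other 8 members, of which the highest upper limit was -2.20, for *Th*. Among all genes tested 26.4% had a lower fold change than *Slc6a9*, against 2.30% for *Chat* and 10.9% for *Slc32a1*, the lowest and the highest of the other 8 members. In GENCODE vM21, 1429 bases (27.8%) of the *Slc6a9* exons also lie in exons of *Ccdc24* on the opposite strand, and whether reads were counted by strand is not given in the sources used here. *Ccdc24* was at 668 ± 77.6 normalised reads in control rods and 339 ± 38.8 in control retina (n = 3 each), so it went the other way, and its part in the *Slc6a9* reads was not tested.

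The genes of acetylcholine and dopamine synthesis rested on few reads in rods. *Chat* (ENSMUSG00000021919) had 5, 29 and 11 reads in control rods and 215, 217 and 276 in control retina, or 7.91, 26.1 and 16.9 normalised reads against 173, 189 and 193, a log2 fold change of -3.51 ± 0.315 (SE, adjusted p = 1.17e-07). *Th* (ENSMUSG00000000214) had 2, 9 and 4 reads in control rods and 51, 82 and 82 in control retina, a log2 fold change of -3.12 ± 0.43 (SE, adjusted p = 1.33e-05). Both genes were lower in each of the 3 control rod libraries than in any control retina library. Their standard errors were the widest of the 9 members in this comparison.

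The transcription factors and calretinin were also depleted. *Tfap2a* (ENSMUSG00000021359) had 68.1, 63.9 and 53.8 normalised reads in control rods against 453, 373 and 463 in control retina, a log2 fold change of -2.78 ± 0.212 (SE, adjusted p = 1.87e-08). *Tfap2b* (ENSMUSG00000025927) had 192, 325 and 235 against 2604, 2602 and 2437, a log2 fold change of -3.37 ± 0.141 (SE, adjusted p = 5.42e-11). *Calb2* had 379.9, 527 and 433 against 4761, 4882 and 4697, a log2 fold change of -3.43 ± 0.143 (SE, adjusted p = 5.42e-11). By the fitted fold change *Tfap2b* and *Calb2* stood at 9.64% and 9.28% of retina and *Tfap2a* at 14.6%, and the 95% intervals of *Tfap2a* and *Tfap2b* overlapped.

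**Figure D2:**
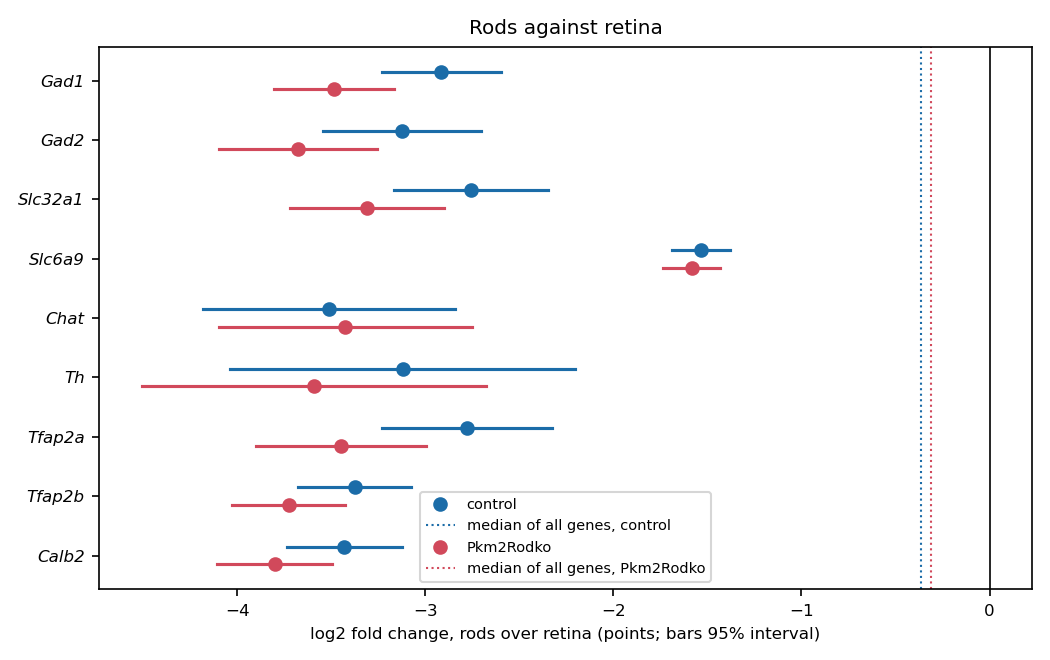
Log2 fold change of rods over retina for the 9 genes in control and Pkm2Rodko mice, with points for the limma estimate, bars for its 95% interval and dotted lines for the median of all genes tested (-0.36 and -0.31). *Slc6a9*, at -1.53 and -1.58, stands to the right of the other genes, which lie between -3.80 and -2.76.

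The same 9 genes were called lower in Pkm2Rodko rods than in Pkm2Rodko retina, where 35.3% of all genes were called lower and 36.9% were lower without overlap, and the median over the 9 genes was -3.48 against -0.31 over all genes. *Gad1* was at -3.48 ± 0.149 (SE, adjusted p = 3.83e-11 by limma), *Gad2* at -3.68 and *Slc32a1* at -3.31 on the log2 scale. *Slc6a9* was at -1.58 (95% interval -1.74 to -1.43), *Chat* at -3.43, *Th* at -3.59, *Tfap2a* at -3.45, *Tfap2b* at -3.72 and *Calb2* at -3.80. Libraries of the same number and genotype in the 2 fractions deviated together, so each rod library could be set against its own retina library. By that measure *Gad1* in rods was at 10.4%, 17.0% and 13.1% of retina in control pairs 1, 2 and 3 and at 10.2%, 7.77% and 8.92% in Pkm2Rodko pairs. *Slc6a9* was at 33.2%, 34.8% and 35.5% in control pairs and at 32.8%, 31.9% and 35.4% in Pkm2Rodko pairs, a smaller relative spread than that of *Gad1*. The 9 genes summed were at 14.1% ± 2.27 of retina in control pairs and 11.3% ± 0.994 in Pkm2Rodko pairs (SD, n = 3), and the pairs of the 2 genotypes overlapped.

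**Figure D3:**
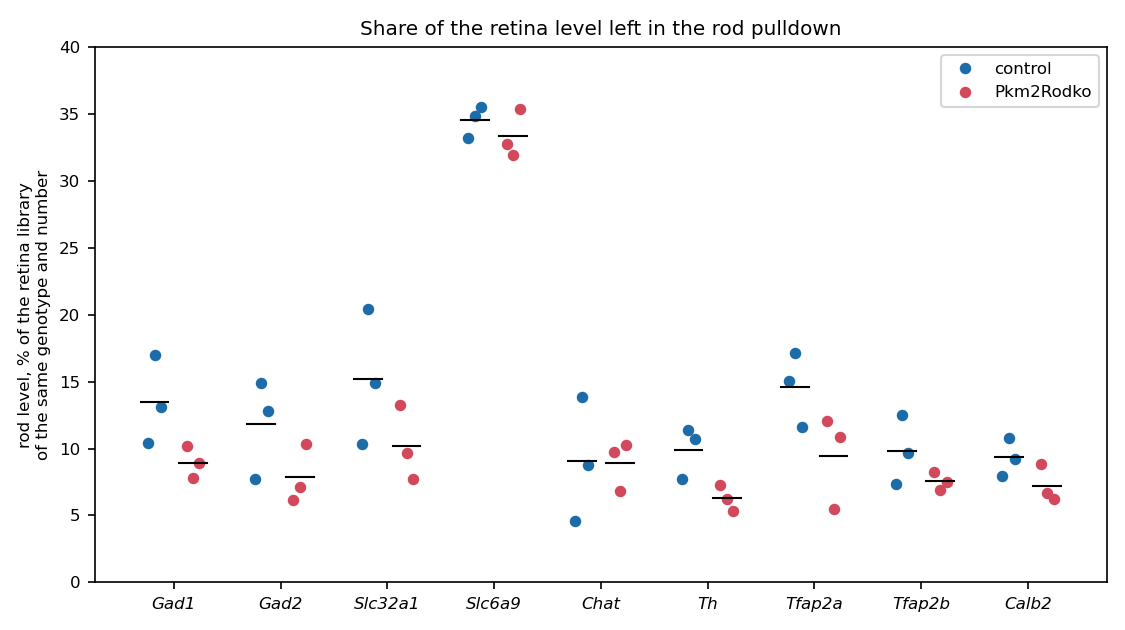
Level in each rod library as a percentage of the retina library of the same genotype and number, from normalised reads, with a line at the mean of 3 pairs. *Slc6a9* lies between 31.9% and 35.5% in the 6 pairs, while the other 8 genes lie between 4.58% and 20.4%.

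Among 46 further genes of amacrine transmission and identity, 43 were called lower in control rods than in control retina, and none was called higher. By the same test 35.7% of all genes were called lower and 23.6% higher. The median log2 fold change of the 46 genes was -2.73, against -0.36 over all genes. The GABA uptake transporter gene *Slc6a11* went from 3845 ± 98.6 normalised reads in control retina to 440.4 ± 114 in control rods, a log2 fold change of -3.16, and all 5 genes of GABA uptake and breakdown were lower. All 6 genes of glycine and acetylcholine transport and breakdown were lower, from *Slc6a5* (the neuronal glycine transporter GlyT2) at -3.19 to the acetylcholinesterase gene *Ache* at -0.81 among the 2 most abundant. Of the 5 dopamine genes 4 were lower, one of them the dopamine transporter gene *Slc6a3* (named after its values were seen), which passed the filter on low values only through retina, at 3.63 normalised reads in control retina and 0.53 in control rods. Without it 42 of 45 further genes were called lower. The dopamine list also held the transcription factor gene *Nr4a2* at -1.86, which was lower, and the vesicular monoamine transporter gene *Slc18a2*, which did not pass the test, at -0.24 (adjusted p = 0.305 by limma). Of 16 transcription factor genes 14 were lower, among them *Pax6* at -2.74. The other 2 did not pass on the TMM scale: *Meis2* was at 2229 ± 165 normalised reads in control retina and 2334 ± 241 in control rods, and *Ptf1a* was near 1 to 2 normalised reads in both. All 14 peptide and subtype genes were lower, with *Prox1* at -2.95 and the connexin 36 gene *Gjd2* at -0.39, next to the median of -0.36 over all genes.

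Genotypes were compared within rods to ask whether loss of *Pkm2* in rods moves RNA of the 9 genes in the pulldown. None of the 9 genes passed the adjusted threshold of 0.05 by limma, edgeR or DESeq2, and 4 of all 20658 genes tested (0.0194%, *Pkm* among them) were called lower by limma. At an unadjusted p under 0.05, 5 of the 9 genes were lower in Pkm2Rodko rods by limma, against 3.41% of all genes. The count was 6 by edgeR, against 3.5% of all genes, and 4 by DESeq2, against 1.93%. Fold changes were negative for 8 of the 9 genes (48.9% of all genes) and the libraries of 4 genes did not overlap, with Pkm2Rodko lower (5.4% of all genes). The median log2 fold change was -0.51 over the 9 genes and 0.0060 over all genes. These fold changes were taken on log2(value + 1), so those of genes with few reads are understated.

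*Gad1* had deposited values of 313, 535.5 and 344 in control rods and 254, 220.8 and 243 in Pkm2Rodko rods. All 3 Pkm2Rodko libraries were below all 3 control libraries, and the log2 fold change was -0.69 (95% interval -1.07 to -0.31). Its unadjusted p was 0.00191 and its adjusted p 0.932 by limma. *Gad2* had 56.4, 99.2 and 78.9 against 36.5, 48.2 and 64.2 (log2 fold change -0.64, 95% interval -1.23 to -0.057), and *Slc32a1* had 64.1, 113.8 and 107 against 77.0, 63.2 and 55.4 (-0.51, 95% interval -1.04 to 0.025). The genotypes overlapped for both of these genes, and their adjusted p was 0.932 as well.

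*Slc6a9* was the member with the smallest negative value. Its deposited values were 499.8, 514 and 538.5 in control rods and 471, 486 and 487 in Pkm2Rodko rods, which did not overlap, and the log2 fold change was -0.10 (95% interval -0.32 to 0.12), with an adjusted p of 0.932 by limma. *Chat*, at 6.4, 21.2 and 13.6 against 15.2, 10.7 and 15.1, had the only positive value, 0.12 (95% interval -0.85 to 1.09, adjusted p = 0.978), and it was negative in edgeR (-0.050) and DESeq2 (-0.037) and without control rods replicate 1 (-0.31). *Th*, at 2 to 9 reads per rod library, had a log2 fold change of -0.66 with an interval from -1.87 to 0.55.

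*Tfap2a* had deposited values of 55.1, 51.8 and 43.1 in control rods and 38.5, 19.3 and 34.9 in Pkm2Rodko rods, without overlap, and a log2 fold change of -0.73 (95% interval -1.37 to -0.082). *Tfap2b* had 155, 263 and 189 against 151, 152 and 143, also without overlap, and a log2 fold change of -0.41 (95% interval -0.80 to -0.0076). *Calb2* had 308, 427.5 and 347.5 against 333.5, 246.5 and 209, with overlap, and a log2 fold change of -0.47 (95% interval -0.85 to -0.090). The adjusted limma p of these 3 genes was 0.932.

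**Figure D4:**
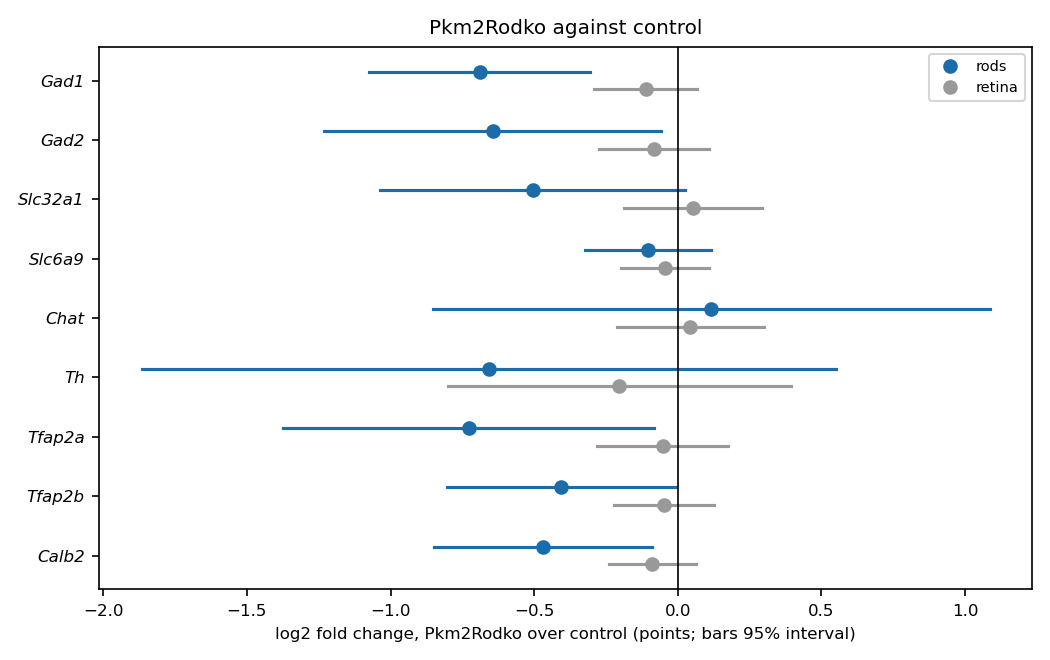
Log2 fold change of Pkm2Rodko over control for the 9 genes in rods and in retina, with points for the limma estimate and bars for its 95% interval. In rods 5 of the 9 bars lie below 0 (*Gad1*, *Gad2*, *Tfap2a*, *Tfap2b*, *Calb2*), and in retina each of the 9 bars includes 0.

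Control rods replicate 2 was the highest of the 6 rod libraries for 7 of the 9 genes. Without it, 1 of the 9 genes was lower at an unadjusted p under 0.05, the median log2 fold change over the 9 genes was -0.36 and that of *Gad1* was -0.45. The count was also 1 without Pkm2Rodko rods replicate 2, 3 without control rods replicate 3 or Pkm2Rodko rods replicate 3, 4 without Pkm2Rodko rods replicate 1 and 5 without control rods replicate 1, where between 1.98% and 4.25% of all genes were lower at that p. Markers of other retinal cells were mostly negative in rods as well, and none was called. For comparison, 48.9% of all genes were negative, and the median log2 fold change over all genes was 0.0060. Müller glia markers were negative for 10 of 10 (median -0.38), ganglion cell markers for 10 of 12 (-0.36), bipolar cell markers for 9 of 11 (-0.31), cone markers for 8 of 10 (-0.10) and horizontal cell markers for 4 of the 6 tested (-0.28), whereas rod markers were negative for 2 of 15 (median 0.05).

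As sums of deposited values relative to the mean of control rods, the 9 genes ranged from 84.9% to 118% in control rods and from 72.6% to 80.3% in Pkm2Rodko rods. The Müller glia markers ranged from 87.7% to 110% and from 72.1% to 85.0%, and the ganglion cell markers from 89.6% to 116% and from 65.8% to 99.9%. The bipolar cell markers ranged from 97.7% to 105% and from 88.8% to 106%, and the rod markers from 97.1% to 103% and from 98.3% to 107%. No marker in these 4 lists was at 0 in every library of either group. The part of other cell types in the values of the 9 genes and of the 46 further genes was not tested. The amount of RNA of other cell types carried into each pulldown was not tested either. From rod libraries alone, fewer cells of a type, less RNA per cell and less RNA carried into the pulldown cannot be told apart.

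**Figure D5:**
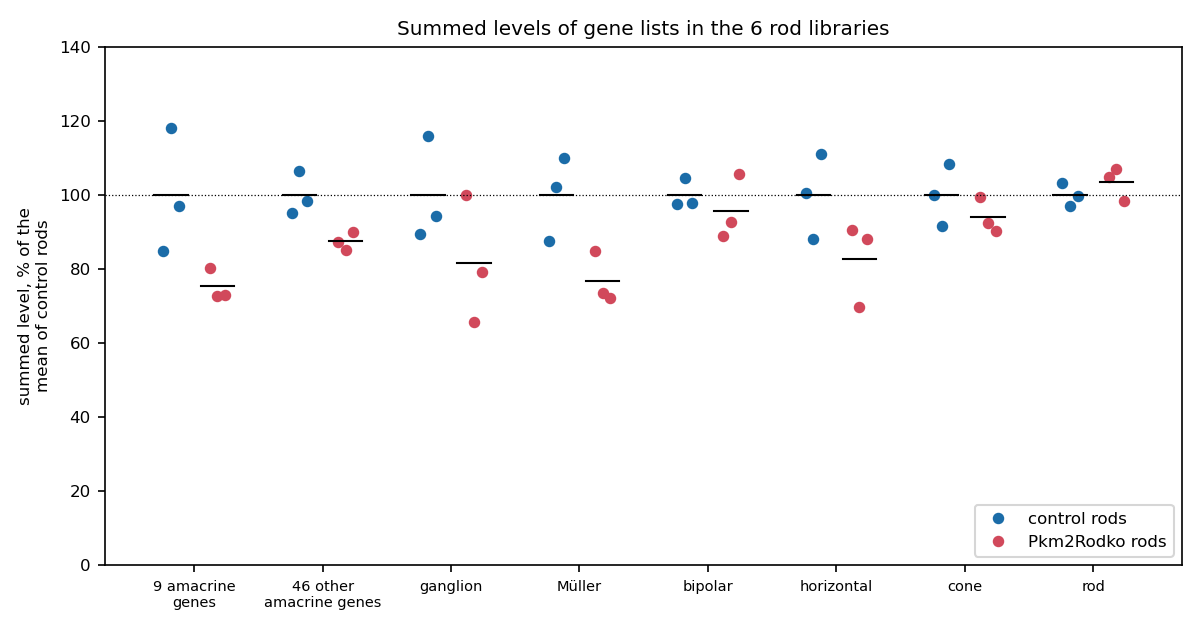
Summed deposited values of 8 gene lists in each rod library as a percentage of the mean of the 3 control rod libraries, with a line at each group's mean. The 9 amacrine genes, the 46 further amacrine genes and the Müller glia markers lie lower in Pkm2Rodko rods without overlap, and the other lists overlap.

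Of the further amacrine genes, 45 were tested in rods and none was called. Fold changes were negative for 38 of them, against 48.9% of all genes, and their median log2 fold change was -0.45. *Gch1*, *Gbx2* and *Crh* (named after their values were seen) were at 0.65, 0.32 and 0.74 normalised reads in Pkm2Rodko rods. These genes passed the filter on low values only through control rods, so their negative sign was built in. They are included in the 38 and in the median. At an unadjusted p under 0.05 by limma, 6 were lower, against 3.41% of all genes. Among the 6 were *Prox1* (-0.56), *Slc6a11* (-0.49), *Slc6a5* (-0.65) and, named after their values were seen, *Tfap2c* (-1.02) and *Neurod2* (-1.54).

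In whole retina none of the 9 genes passed the threshold by limma, edgeR or DESeq2, and none was below an unadjusted p of 0.05 in any of the 3 tests. Of all 25590 genes, 0.00391% (1 gene) were called lower by limma and 2.06% were lower at an unadjusted p under 0.05. Log2 fold changes ran from -0.20 (*Th*) to 0.05 (*Slc32a1*), with a median of -0.05. Of the 9 genes, 7 were negative (51% of all genes), and the genotypes overlapped for each of the 9, where 4.76% of all genes were lower without overlap. *Gad1* had deposited values of 4492, 4770.4 and 3999.9 in control retina and 3797, 4282 and 4179 in Pkm2Rodko retina, a log2 fold change of -0.11 (95% interval -0.29 to 0.067). *Slc6a9* had 2254, 2227.5 and 2313 against 2186, 2292.5 and 2111 (-0.04, 95% interval -0.20 to 0.11), and *Calb2* was at -0.09 (95% interval -0.24 to 0.062). *Chat*, better covered here than in rods, had 209, 231 and 237 against 237, 236.0 and 224, and a log2 fold change of 0.04 (95% interval -0.21 to 0.30). *Th* had the widest interval, from -0.80 to 0.39, at 40 to 82 reads per library. Adjusted p-values of the 9 genes lay between 0.947 and 0.973 by limma with Benjamini-Hochberg adjustment. The 46 further amacrine genes had a median of -0.04, and none of them was below an unadjusted p of 0.05.

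The difference between the genotype effects of the 2 fractions was tested in the fit of all 12 libraries. None of the 9 genes was called by limma, edgeR or DESeq2, and 0% of all 25458 genes was called lower by limma. At an unadjusted p under 0.05 the effect was lower in rods for 2 of the 9 genes by limma, against 2.6% of all genes, for 6 by edgeR (3.59% of all genes) and for 5 by DESeq2 (2.75%). These 2 were *Gad1*, with a difference of -0.57 ± 0.21 (SE, unadjusted p = 0.016 and adjusted p = 0.978 by limma), and *Tfap2a*, with -0.67 ± 0.299 (SE, unadjusted p = 0.0405 by limma). The difference was negative for 8 of the 9 genes and for 49.3% of all genes. *Slc6a9* had a difference of -0.05 (95% interval -0.27 to 0.17). With each rod library paired to its retina library as a replicate block, 6 of the 9 genes were lower at an unadjusted p under 0.05, against 4.05% of all genes in the same blocked fit, and none was called. Without the block, leaving out a library gave counts from 0 (without Pkm2Rodko rods replicate 2) to 5 (without control rods replicate 1). In these fits 2.13% and 3.93% of all genes, in that order, were lower at that p.

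Over the 12 libraries the 5 genes whose log2 level was closest to the mean log2 level of the 9 members were *Spock2*, *Rph3a*, *Rap1gap2*, *Atp2b2* and *Efr3b*, with Pearson's r from 0.9989 to 0.9993 among 17588 genes compared. The 12 libraries share the split into rods and retina, and 3050 genes had an r above 0.95, 753 of them above 0.99. *Spock2* was at 6004 normalised reads in control retina and 697 in control rods.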

How the data were processed

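Polyadenylated RNA from rod ribosomes and from whole retina was sequenced in 12 mouse libraries. The submitters' processing notes name CASAVA 1.8.2, HISAT2, DESeq2, edgeR and the build GRCm39. The counter, the annotation and the strand setting are not given in the sources used here. The signal that the authors deposited for a gene in a library is its reads over a size factor, set among the 6 libraries of a fraction and rounded to 1 decimal. Within that rounding (an absolute tolerance of 0.05, whatever the size of the value), 99.997% of positive values were whole multiples of the value of 1 read, so reads were recovered. The design allowed for counts, and because the table holds scaled values the tests were run on a log scale.

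Genotypes were compared within rods (20658 genes whose mean reached 1 in either genotype) and within retina (25590 genes) with limma 3.58.1 (R 4.3.3, variance trend) on log2(value + 1) of the deposited values. Rods against retina, and the genotype effect in rods against that in retina, were tested in 1 limma fit of 4 group means on recovered reads scaled by TMM over 12 libraries (25458 genes). P-values were adjusted over all genes of a comparison by the Benjamini-Hochberg method, with a threshold of 0.05. With 3 libraries in a group, the smallest p of an exact permutation test would be 0.1. All 9 members passed the filters. Every pair of replicates differed by more than counting noise. Precision rests on 3 libraries in each group and, for *Chat* and *Th* in rods, on few reads.

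Input and pulldown libraries of the same genotype and number deviated together (r from 0.26 to 0.55, each highest with its own number), so the numbers pair the fractions. Alternatives were edgeR 4.0.16, DESeq2 1.42.0, other scalings, filters and a pseudocount of 0.1, limma without a variance trend, 1 fit of 12 libraries, replicate blocks and leaving out each library. The scripts were tested on simulated data. Exon lengths and overlaps came from GENCODE vM21 (GRCm38) by identifier, and figures were drawn with Python 3.11.15.

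The 9 members, the 46 further genes, the markers and the tests were chosen with earlier results of these data known. Genes named beyond the 9 members and *Pkm* are, of each list, the 2 most abundant in control retina and any not lower in control rods than in retina, and the 5 genes most like the members' mean. *Ccdc24* (a neighbour of *Slc6a9*), *Slc6a3*, *Tfap2c*, *Neurod2*, *Gch1*, *Gbx2*, *Crh*, *Otx2* and *Prkca* lie outside this rule and were named after their values were seen. A gene that this rule would name is not reported here.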

Additional observations from a re-analysis of the deposited data

How the results depend on the processing

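All 9 genes stayed lower in rods than in retina, without exception, under TMM, RLE, total-read and deposited scaling, a pseudocount of 0.1, no filter, edgeR, DESeq2, the replicate block and with each library left out. A minimum of 10 reads in every library left 7 genes tested, all 7 lower, since *Chat* and *Th* fall below it. The share of all genes called lower varied with the setting. In control mice it was 9090 of 25458 genes in the main fit and 13144 of 25949 on the deposited scaling. With the minimum of 10 reads it was 3614 of 12918. The summed level of the 9 genes in control rods was 14.1% of retina with TMM, 9.66% with scaling by total reads and 9.34% on the deposited scaling, an alternative chosen after seeing the data. No member was called in a genotype comparison or in the difference of genotype effects under any alternative. The adjusted p of *Gad1* in rods ranged from 0.0943, in 1 fit of all 12 libraries, to 0.983 over the alternatives other than leaving out a library.

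*Chat* changed sign between genotypes in rods, at -0.050 with edgeR and TMM, -0.058 with edgeR and RLE and -0.037 with DESeq2, and ranged from -0.31 to 0.48 with a library left out. Its difference of genotype effects was -0.15 with edgeR and -0.16 with DESeq2, and ranged from -0.36 to 0.46 with a library left out. In retina, leaving out a library gave ranges that cross 0 for *Slc32a1* (-0.033 to 0.16), *Chat* (-0.0096 to 0.078), *Tfap2a* (-0.15 to 0.0065) and *Tfap2b* (-0.12 to 0.0051). The cause was not tested. A further 909 results under alternatives were labelled as unchanged. For a single gene this means that direction and side of the threshold were kept. Of the 909, 93 were counts of called members, which have no direction. Such a count was labelled unchanged when equal or close to that of the main fit, as with the filter that left out *Chat* and *Th*.

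Over all genes in rods, 4 were called lower by limma and edgeR, 7 by DESeq2, 17 in 1 fit of 12 libraries and 0 by limma without a variance trend. Replicate numbers did not pair the genotypes (r from -0.30 to 0.04), and with the number as a replicate block 0 of 9 members were called in rods and in retina and 5 of 9 were lower in rods at an unadjusted p under 0.05 (3.34% of all genes). The block of paired fractions raised the members lower at an unadjusted p under 0.05 in the difference of genotype effects from 2 to 6 of 9 (all genes from 2.6% to 4.05%) and changed no other call. Depth limits *Chat* (5 to 29 reads) and *Th* (2 to 9 reads) in rods.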
